A study of Homo sapiens with 36 samples.

Results

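Aristolochic acid is a plant nitroaromatic toxin that has to be reduced inside the cell before it binds DNA, and 6 genes whose enzymes are known to activate it or other nitroaromatic toxins were followed here: NQO1, POR and XDH (nitroreductases), SULT1A1 (a sulfotransferase), and PTGS1 and PTGS2 (the cyclooxygenases). They were 6 of 19775 genes with a probe set annotated to a single symbol, and they had 15 such probe sets in all. Each gene was read from the probe set with the highest mean over the 36 arrays, with sets ending in _x_at taken last, and its other sets served as a check. The rule names the enzymes by what they do and uses no measured value, but it was written with earlier results of these arrays known.

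The cells were HK-2, an immortalized human line with the label of renal proximal tubular epithelium, so every array comes from 1 line. The 12 groups of 3 biological replicates were Aa high and low dose with their controls at 24 h and at 48 h, and Ota high and low dose with their controls at 24 h and at 72 h. Vehicle controls were made separately for each compound and each time, and all cells, controls included, were kept in medium supplemented with EGF, hydrocortisone, insulin, transferrin and selenite. The labels give neither the full names of Aa and Ota nor the doses, so whether the doses are matched between the compounds is not known. Nothing in the labels says whether replicates were separate passages or days, so the p-values measure the spread between these samples.

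NQO1 makes a cytosolic flavoprotein that passes 2 electrons to a quinone or nitro group in 1 step, and it is regarded as the main enzyme for the reductive activation of aristolochic acid in human kidney and liver. POR passes electrons from NADPH to the microsomal cytochromes P450 and can reduce nitro groups itself, and XDH, the molybdenum enzyme that ends purine breakdown, has nitroreductase activity too. SULT1A1 conjugates phenols and hydroxylamines with sulfate, which can turn the reduced toxin into a more reactive ester. PTGS1 and PTGS2 make prostaglandin H from arachidonic acid, the first constitutively in many tissues and the second on induction, and their peroxidase step can oxidise or reduce foreign amines and nitro compounds.

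On the RefSeq assembly GRCh38.p14, NQO1 lies at chr16:69709401-69726560, POR at chr7:75915155-75986855, XDH at chr2:31334321-31414742, SULT1A1 at chr16:28605258-28623375, PTGS1 at chr9:122370533-122395703 and PTGS2 at chr1:186671791-186680423. Promoter sequences from RefSeq were at hand for 4 members: NQO1, XDH, PTGS1 and PTGS2. The windows of NQO1, XDH and PTGS1 are printed, because NQO1 was lower and XDH and PTGS1 were higher in the same group of cells. Each is the 250 bases before an annotated start site, 5′ to 3′ on the coding strand, and PTGS1 has 2 such windows. Capitals mark any match, on either strand, to 1 of 5 motifs. These were the core of the antioxidant response element, spelled TGACNNNGC, which transcription factors of the NRF2 family bind. The site of the AP-1 family of dimeric factors was spelled TGANTCA. The core of the xenobiotic response element, the site of the aryl hydrocarbon receptor, was spelled GCGTG. The element near the start of transcription known as the TATA box was searched as TATANA. The last was the CCAAT box, searched by the letters of its name.
NQO1, chr16:69726561-69726810, minus strand: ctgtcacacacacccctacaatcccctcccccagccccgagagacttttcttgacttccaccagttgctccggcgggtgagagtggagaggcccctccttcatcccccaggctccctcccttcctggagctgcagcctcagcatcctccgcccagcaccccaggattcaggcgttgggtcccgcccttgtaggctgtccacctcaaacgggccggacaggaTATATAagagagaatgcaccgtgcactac
XDH, chr2:31414743-31414992, minus strand: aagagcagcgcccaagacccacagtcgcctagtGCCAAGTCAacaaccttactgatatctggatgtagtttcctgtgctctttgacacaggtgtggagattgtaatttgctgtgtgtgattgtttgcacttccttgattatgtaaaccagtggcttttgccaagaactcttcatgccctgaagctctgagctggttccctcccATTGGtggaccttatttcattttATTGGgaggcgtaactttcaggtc
PTGS1 first window, chr9:122370283-122370532, plus strand: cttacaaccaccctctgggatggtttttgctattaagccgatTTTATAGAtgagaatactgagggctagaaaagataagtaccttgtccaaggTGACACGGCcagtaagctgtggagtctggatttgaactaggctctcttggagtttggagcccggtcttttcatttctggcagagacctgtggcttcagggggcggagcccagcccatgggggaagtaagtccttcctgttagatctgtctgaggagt
PTGS1 second window, chr9:122375052-122375301, plus strand: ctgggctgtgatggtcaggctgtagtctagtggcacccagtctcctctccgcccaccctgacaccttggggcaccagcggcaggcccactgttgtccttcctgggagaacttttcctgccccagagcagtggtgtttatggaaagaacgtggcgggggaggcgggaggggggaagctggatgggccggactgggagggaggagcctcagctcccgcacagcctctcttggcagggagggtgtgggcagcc

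The NQO1 window held a TATA match that reads the same on both strands, and no other match. The XDH window held 1 antioxidant element core and 2 CCAAT boxes, all on the strand opposite to the gene. The first PTGS1 window held 1 antioxidant element core on the coding strand, and 2 overlapping TATA matches, 1 on each strand, far from the start site. The second PTGS1 window held no match. PTGS2, not printed, had a TATA match on the coding strand and 1 CCAAT box on the other. Over the 35116 windows of this length in the table, 10.9% held the antioxidant element core, 6.57% the AP-1 site, 32.2% the xenobiotic element core, 17.7% the TATA box and 32% the CCAAT box. These matches describe letters in a window, and binding of any factor was not measured. Sequence outside the windows was not searched. A window without a match, as for the antioxidant element core in NQO1, therefore does not show that the gene lacks such a site.

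In the vehicle controls, NQO1 (probe set 210519_s_at) lay between 9.67 and 11.18 on the log2 scale over the 12 control arrays, POR (208928_at) between 7.24 and 8.20 and PTGS1 (238669_at) between 4.89 and 5.62. XDH (241994_at) lay between 2.29 and 2.35 there, SULT1A1 (238995_at) between 2.49 and 2.55 and PTGS2 (204748_at) between 2.53 and 2.59. Values at or under 4 are not told apart from background on this platform and have no dependable order. The levels of different probe sets are not compared with each other here, because probes differ in how brightly they hybridise.

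A gene was tested if it exceeded 4 on at least 3 of the 18 arrays of a compound, which kept 3 members for Aa (NQO1, POR, PTGS1) and 4 for Ota (the same and XDH). XDH passed only through the Ota high dose group at 72 h, so a difference there was fixed by the filter, and its values are given as a description with no test. A call below means an adjusted p under 0.05 in limma, two-sided, with Benjamini-Hochberg adjustment over all genes tested. Under high dose Aa, all 3 tested members were called higher at 24 h, where 51.3% of all genes tested were called (27.4% higher, 24.0% lower), and again at 48 h, where 66.0% were called (30.9% higher, 35.1% lower). Under high dose Ota, only POR of 4 was called at 24 h, in a comparison where 64.0% of all genes were called in either direction (21.6% higher, 42.4% lower; 38.4% and 30.6% with quantile normalization, 48.3% and 26% with arrays shifted to 1 median). At 72 h the 3 members other than XDH were called, NQO1 lower and POR and PTGS1 higher, against 63.4% of all genes in either direction (26.3% higher, 37.0% lower; 36.3% and 30.1% with quantile normalization, 40.2% and 27.6% with shifted arrays). The counts are small beside such backgrounds, and the members are therefore described one by one.

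**Figure D1:**
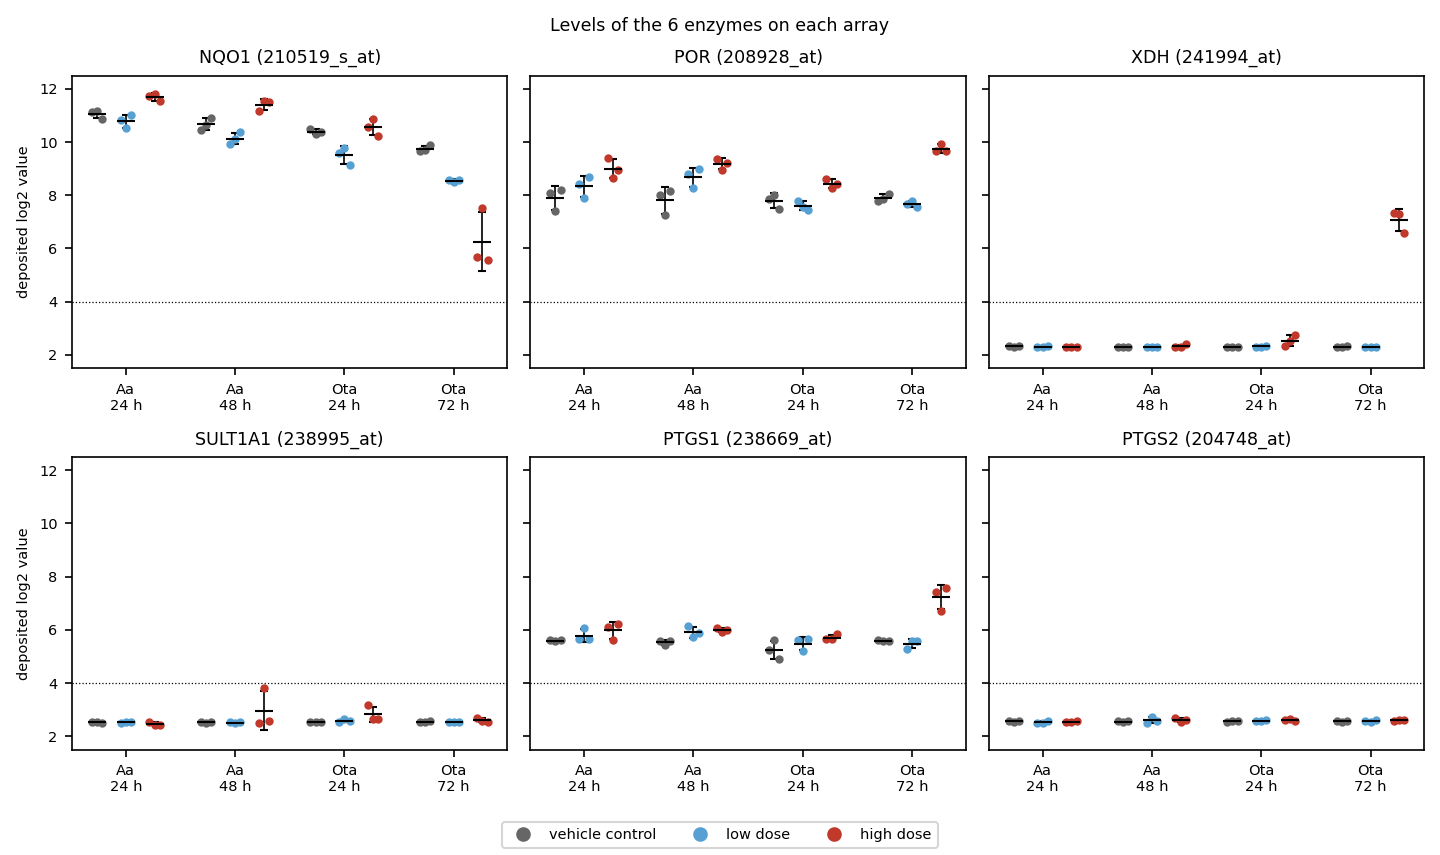
Deposited log2 values (vertical axis) of the main probe set of each enzyme on all 36 arrays, in blocks by compound and time, with vehicle control, low dose and high dose from left to right. Points are arrays, black bars the mean and SD of 3 arrays, and the dotted line marks the level of 4. NQO1 fell and POR and PTGS1 rose in the Ota high dose group at 72 h, the only group with XDH over 4, and PTGS2 and this set of SULT1A1 stayed under 4 on every array.

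With the low dose of Aa, none of the 3 tested members was called by limma at 24 h (adjusted p from 0.261 to 0.424, 25.1% of all genes called; 0 of the 3 had an unadjusted p under 0.05). At 48 h 2 were, NQO1 lower and POR higher (37.9% of all genes called, 18.8% higher and 19.1% lower). With the low dose of Ota none was called by limma at 24 h (14.7% of all genes; 1 of 4, NQO1, had an unadjusted p under 0.05), and NQO1 alone, lower, at 72 h (17.1% of all genes, 7.28% lower). The high dose effect of Ota differed between 72 h and 24 h for the 3 members other than XDH, NQO1 towards lower and POR and PTGS1 towards higher values (53.8% of all genes called, 20.8% lower and 33.0% higher), and that of Aa between 48 h and 24 h for none of 3 by limma (20.7% of all genes called; unadjusted p from 0.505 to 0.773).

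NQO1 was higher at both times under high dose Aa, and lower under low dose Aa at 48 h. At 24 h it measured 11.72, 11.81 and 11.54 in Aa high dose cultures, against 11.12, 11.18 and 10.87 in controls. The groups did not overlap, and NQO1 was 0.64 ± 0.16 higher on the log2 scale (limma, SE; 95% interval 0.28 to 0.99; adjusted p = 0.00462), a 1.55-fold rise. This call of NQO1 at 24 h was lost with all 36 arrays in 1 fit. At 48 h it measured 11.15, 11.55 and 11.50 against 10.46, 10.65 and 10.91 in controls, 0.72 ± 0.16 higher (adjusted p = 0.00123). The difference between the 48 h and the 24 h effect was 0.09 ± 0.23 (95% interval -0.41 to 0.59; limma, adjusted p = 0.823).

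The low dose of Aa gave 9.92, 10.11 and 10.36 at 48 h, all under the lowest of those controls. NQO1 fell there by 0.55 ± 0.16 (limma, adjusted p = 0.0172). That call was lost with only the 2 groups compared in the fit (adjusted p = 0.0518), with all 36 arrays in 1 fit (0.158), and without low dose replicate 1 (0.0828) or control replicate 3 (0.0768). At 24 h the low dose values of 10.82, 10.52 and 11.01 overlapped the controls. High and low dose differed by 0.91 ± 0.16 at 24 h and by 1.27 ± 0.16 at 48 h (adjusted p = 0.000875 and 2.78e-05), with no overlap at either time (17.1% and 20.9% of all genes were called higher in the high dose). Both other NQO1 sets (201468_s_at, 201467_s_at) were called the same way in a fit of all probe sets with the high dose at both times (24.8% and 27.6% of all sets were higher) and with the low dose at 48 h (17.5% lower).

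With Ota, NQO1 was the member that fell most. At 72 h its 3 high dose arrays read 5.66, 7.53 and 5.57, against 9.67, 9.72 and 9.87 in controls. The low dose arrays read 8.58, 8.49 and 8.56. The high dose arrays lay far under all others, and replicate 2 stood above the other two. NQO1 was 3.50 ± 0.37 lower on the log2 scale in the high dose (a change of -3.50, 95% interval -4.28 to -2.72; adjusted p = 6.95e-07), or 11.3-fold. Without replicate 2 of the high dose, the change was -4.14 (adjusted p = 7.66e-10). In the low dose the change was -1.21 ± 0.37 (adjusted p = 0.0331), but the call was lost when any 1 of the 6 arrays was left out (adjusted p from 0.0728 to 0.104) and with no filter on low values (0.0820). The values of the 3 low dose arrays still lay under all 3 control arrays. The SE of 0.37 comes from 1 spread shared by all Ota groups. At 72 h the SD of NQO1 was 1.11 in the high dose, 0.05 in the low dose and 0.11 in controls. The part of the high dose spread in the lost calls was not tested.

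The other NQO1 sets fell too at 72 h. Set 201467_s_at read 3.96, 4.07 and 3.99 in the high dose, against 7.77, 7.67 and 7.91 in controls, and so came down to the level where values have no order. Set 201468_s_at read 7.29, 8.53 and 6.68 against 9.84, 10.07 and 10.14. Their changes were -3.78 ± 0.24 and -2.52 ± 0.34 (limma, adjusted p = 4.28e-09 and 9.96e-06, with 32.5% of all sets called lower).

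At 24 h, by contrast, NQO1 read 10.58, 10.86 and 10.23 in the Ota high dose and 10.50, 10.32 and 10.36 in controls, and these groups overlapped (0.17 ± 0.37, 95% interval -0.61 to 0.95; limma, adjusted p = 0.711). The low dose arrays of 9.58, 9.78 and 9.13 lay under the controls without a call (-0.90 ± 0.37, adjusted p = 0.121), although set 201467_s_at was called lower (-0.94 ± 0.24, adjusted p = 0.0122, 9.86% of all sets called lower). High dose exceeded low dose by 1.06 ± 0.37 at 24 h (adjusted p = 0.0212; 19.4% of all genes were called higher), a call lost without high dose replicate 2 (0.0720) or low dose replicate 3 (0.0877). The high dose effect at 72 h differed from that at 24 h by -3.66 ± 0.52 (adjusted p = 3.38e-05).

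Across the 12 groups the order of NQO1 means began with Aa high dose at 24 h (11.69 ± 0.14, SD, n = 3) and at 48 h (11.40 ± 0.21), and went on with Aa controls at 24 h (11.06 ± 0.16). It ended with Ota low dose at 72 h (8.54 ± 0.05) and Ota high dose at 72 h (6.25 ± 1.11). Among the first 8 groups each range overlapped that of the next in order, and those of the last 3 groups (Ota low dose at 24 h and at 72 h, Ota high dose at 72 h) did not overlap one another. The Ota controls at 24 h averaged 10.39 ± 0.09 and the Aa controls 11.06 ± 0.16. Their difference, -0.66 ± 0.29, was not called (adjusted p = 0.208, 4.80% of all genes called), though set 201467_s_at was (-1.02 ± 0.21, adjusted p = 0.00379, 3.41% of all sets called lower). Whether the arrays of both compounds were normalized together is not given in the sources used here, which touches any level set across the compounds.

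**Figure D2:**
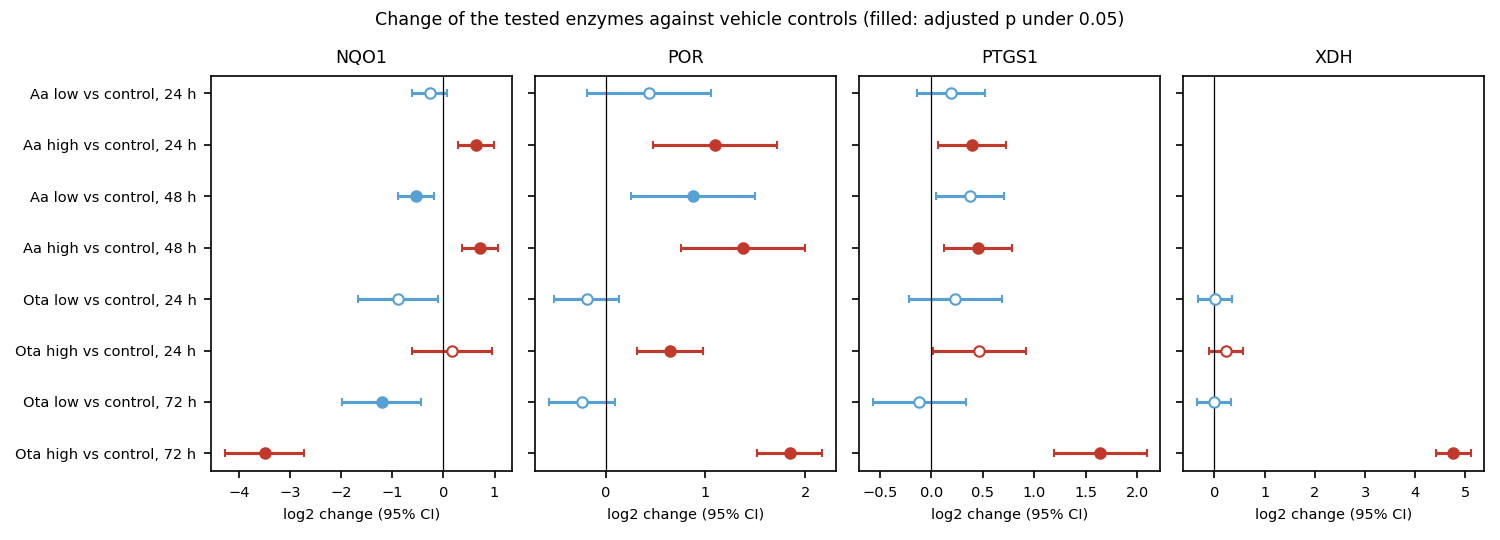
Log2 change against vehicle controls (horizontal axis, with 95% interval from limma) of the 4 enzymes tested, for each compound, time and dose (rows). Filled points were called at an adjusted p under 0.05; horizontal scales differ between panels, XDH was not tested with Aa, and its point at 72 h was fixed by the filter on low values. NQO1 ran from -3.50 (Ota high dose, 72 h) to 0.72 (Aa high dose, 48 h), while every called change of POR was a rise.

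POR, which had no single-symbol probe set other than 208928_at to serve as a check, rose with the high dose of both compounds at every time. With Aa at 24 h it read 9.39, 8.66 and 8.93 in the high dose, against 8.10, 7.40 and 8.20 in controls. At 48 h it read 9.36, 8.96 and 9.21 against 8.00, 7.24 and 8.17. The groups did not overlap, and the changes were 1.10 ± 0.29 and 1.38 ± 0.29 (limma, adjusted p = 0.00535 and 0.000679), or 2.14-fold and 2.60-fold. Replicate 2 was the lowest of its group in each of these 4 groups.

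The low dose of Aa gave 8.79, 8.28 and 8.97 at 48 h, 0.88 ± 0.29 above controls (adjusted p = 0.0271). That call was lost with only the 2 groups in the fit (0.0599), with no filter (0.0623) and without low dose replicate 1 (0.0810), low dose replicate 3 (0.108) or control replicate 2 (0.140). The Aa samples deviated from their group means together by replicate number, and with the number as a block more of the POR differences were called. With this replicate block, low dose against control at 24 h was called (0.44, adjusted p = 0.0213, against 0.309 without it), as was high against low dose at 24 h (0.66, adjusted p = 0.00174, against 0.109) and at 48 h (0.50, adjusted p = 0.00621, against 0.176).

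With Ota, POR read 8.61, 8.28 and 8.43 in the high dose at 24 h, against 7.87, 8.03 and 7.47 in controls (0.65 ± 0.16, adjusted p = 0.00176). At 72 h it read 9.67, 9.93 and 9.64 against 7.80, 7.87 and 8.05, the highest group of the 12, with no overlap with any other. That was a rise of 1.84 ± 0.16 (95% interval 1.51 to 2.17; limma, adjusted p = 6.63e-08), or 3.59-fold, and larger than the rise at 24 h by 1.19 ± 0.22 (adjusted p = 0.000325). The low dose gave 7.78, 7.58 and 7.44 at 24 h and 7.69, 7.77 and 7.54 at 72 h, not called against controls at either time (limma, adjusted p = 0.490 and 0.340), and the high dose exceeded it by 0.84 ± 0.16 and 2.08 ± 0.16 (adjusted p = 0.000263 and 3.75e-08; 21.7% of all genes were called higher at 72 h).

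The Ota high dose arrays at 24 h stood apart as a whole. Their median over the tested genes was 7.64 ± 0.16, against 8.28 ± 0.06 in controls, and the median change of all genes tested was -0.26. With every array shifted to 1 median the rise of POR at 24 h was 1.32 (adjusted p = 2.62e-06) and with quantile normalization 1.17 (1.09e-05), so the size of this rise depends on the scaling and its direction did not change.

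XDH had signal in 1 group only. It read 7.32, 7.29 and 6.60 in Ota high dose cultures at 72 h, against 2.31, 2.30 and 2.32 in controls, 2.33, 2.52 and 2.74 in the high dose at 24 h, and at most 2.39 on the arrays of all other groups. At 72 h this was at least 8.41-fold over controls, taking the controls at 4, and at least 8.41-fold over the low dose. The difference between the high dose effects at 72 h and at 24 h was 4.54, or 3.07 with values at or under 4 set to 4, on the log2 scale and with no test.

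The XDH probe sets disagreed. The second set, 210301_at, read 3.02, 2.11 and 2.63 on the same 3 high dose arrays, against 2.09, 2.37 and 2.16 in the controls, and stayed under 4 on all 36 arrays. The signal therefore rests on 241994_at alone.

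**Figure D3:**
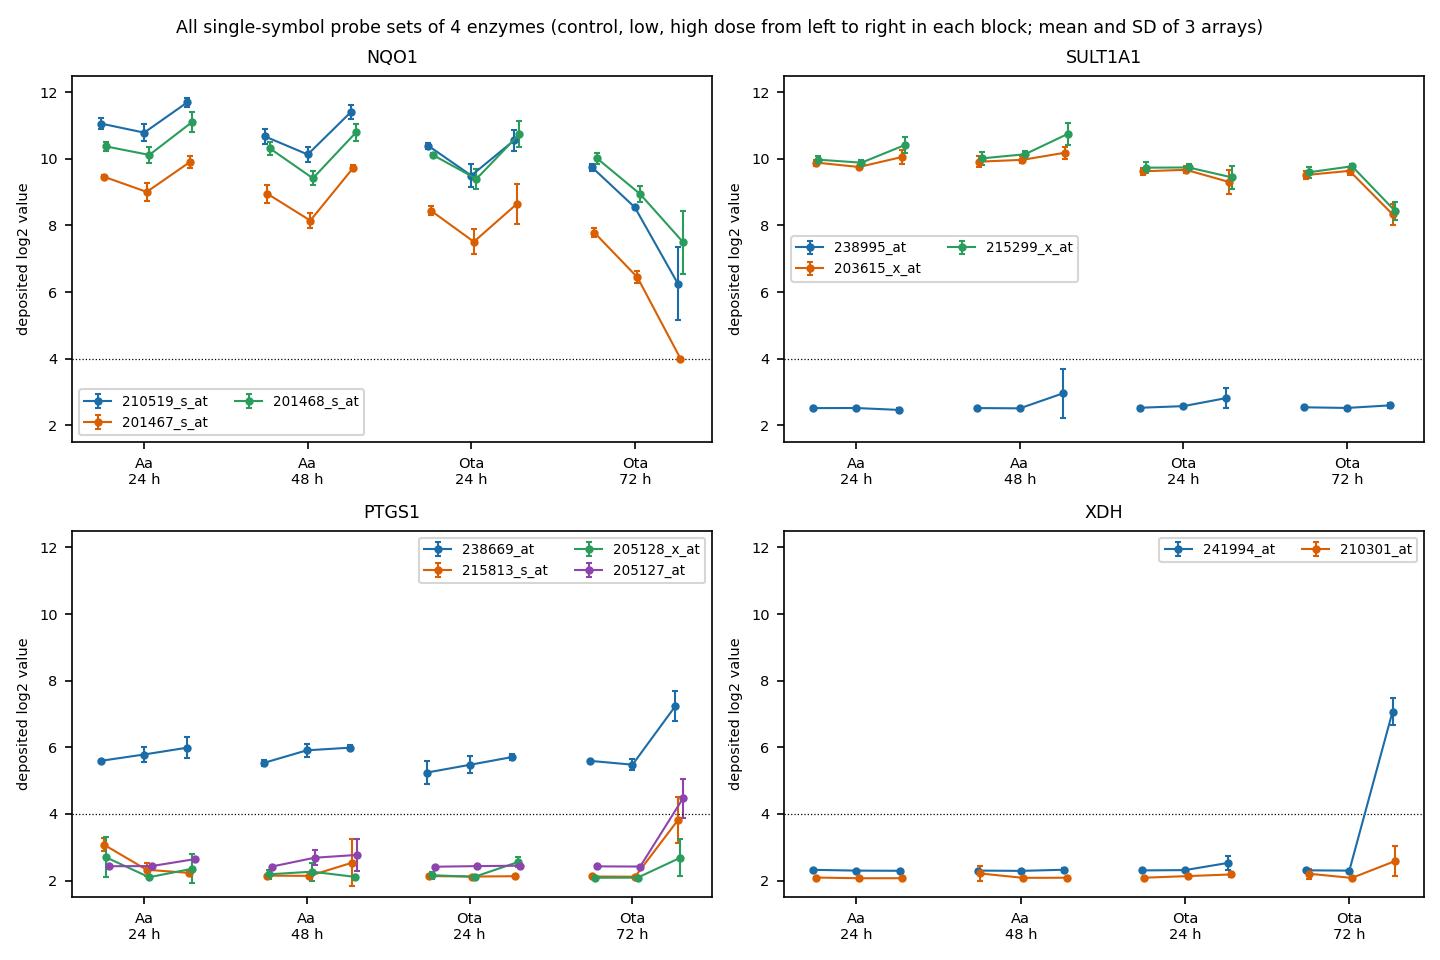
Deposited log2 values (vertical axis, mean and SD of 3 arrays) of all single-symbol probe sets of NQO1, SULT1A1, PTGS1 and XDH, in blocks by compound and time with control, low dose and high dose from left to right; the dotted line marks the level of 4. The 3 NQO1 sets moved together, 2 SULT1A1 sets fell in the Ota high dose at 72 h, and XDH exceeded 4 there on 1 of 2 sets.

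SULT1A1 could not be followed by its main set, which had no array over 4 (highest 3.82, on Aa high dose replicate 2 at 48 h). Its other 2 sets, 215299_x_at and 203615_x_at, were bright on all 36 arrays, between 8.06 and 11.12. Sets with this ending can hybridise with near-identical transcripts, and SULT1A1 has close paralogs in the same family, so their signal cannot be credited to SULT1A1 alone. They were tested in the fit of all probe sets.

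On these sets the signal fell with the high dose of Ota at 72 h. Set 215299_x_at read 8.43, 8.16 and 8.71 in the high dose, against 9.67, 9.70 and 9.41 in controls, and set 203615_x_at read 8.27, 8.06 and 8.67 against 9.50, 9.64 and 9.40. The groups did not overlap, and the changes were -1.16 ± 0.18 and -1.18 ± 0.18 (limma, adjusted p = 3.10e-05 and 3.21e-05). At 24 h neither was called (-0.29 ± 0.18 and -0.32 ± 0.18, adjusted p = 0.163 and 0.130), and the difference between the times was -0.87 ± 0.25 and -0.86 ± 0.25 (adjusted p = 0.00861 and 0.0106, 18.6% of all sets called lower).

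With the high dose of Aa the 2 sets parted. Set 215299_x_at read 10.53, 10.13 and 10.57 at 24 h, against 9.86 to 10.08 in controls, and 10.47, 10.66 and 11.12 at 48 h, against 9.87, 9.94 and 10.23. It was called higher at both times (0.43 ± 0.16 and 0.74 ± 0.16, adjusted p = 0.0376 and 0.00104). Set 203615_x_at was not (0.17 ± 0.13 and 0.27 ± 0.13, adjusted p = 0.303 and 0.0780). Neither set was called with a low dose of either compound.

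PTGS1 rose clearly in 1 group. It read 7.41, 6.73 and 7.58 in the Ota high dose at 72 h, against 5.61, 5.58 and 5.59 in controls, the highest of the 12 groups with no overlap with the rest. The change was 1.64 ± 0.21 (95% interval 1.19 to 2.09; limma, adjusted p = 6.20e-06), or 3.12-fold. It exceeded the change at 24 h by 1.17 ± 0.30 (adjusted p = 0.00401), by 0.84 with shifted arrays (0.0300) and by 0.70 with quantile normalization (0.0494). Set 205127_at went the same way, with 4.19, 4.07 and 5.15 in the high dose at 72 h against 2.43, 2.42 and 2.43 in controls. Set 215813_s_at exceeded 4 on 1 of those 3 arrays (3.87, 3.09 and 4.48) and set 205128_x_at on none.

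At 24 h PTGS1 read 5.65, 5.65 and 5.83 in the Ota high dose, against 5.23, 5.60 and 4.89 in controls. This was not called (0.47 ± 0.21, adjusted p = 0.0651), but was with shifted arrays (1.14, adjusted p = 0.000214), with quantile normalization (1.41, 1.89e-05), with all 36 arrays in 1 fit (0.0310) and without control replicate 2 (0.65, 0.0200). With the low dose of Ota, PTGS1 was not called at either time (limma, adjusted p = 0.550 and 0.788).

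With Aa the changes of PTGS1 were small. It read 6.12, 5.62 and 6.23 in the high dose at 24 h, against 5.60, 5.57 and 5.62 in controls, and 6.07, 5.91 and 5.98 at 48 h, against 5.58, 5.42 and 5.60. The changes were 0.39 ± 0.15 and 0.46 ± 0.15 (limma, adjusted p = 0.0456 and 0.0171). The call at 24 h was lost under most alternatives, among them all 36 arrays in 1 fit (adjusted p = 0.0899), no filter (0.0715) and each array left out but high dose replicate 2 (0.0805 to 0.190). The call at 48 h was lost without high dose replicate 1 (0.0541) or control replicate 2 (0.0624). In the low dose at 48 h the values were 6.13, 5.73 and 5.87, and the change of 0.38 ± 0.15 was called with the replicate block (adjusted p = 0.0468) and without low dose replicate 2 (0.0434), but not otherwise (0.0672).

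PTGS2, the inducible cyclooxygenase, was not detected. Set 204748_at lay between 2.48 and 2.73 on the 36 arrays and set 1554997_a_at between 2.29 and 2.39, with no array over 4 in any group. A change under this level would not be seen on these arrays.

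The compounds were also set against each other at 24 h, the time they share, though whether their doses are matched is not known. None of NQO1, POR and PTGS1 was called by limma for a difference in high dose effect between Ota and Aa (59.4% of all genes were called), with unadjusted p from 0.196 to 0.778, and XDH was under 4 in all 4 groups. On simulated data, this comparison recovered 43% of changes of 1 and 92% of changes of 2 (log2). The simulation changed 100 genes by each amount among 11405, far fewer than were called in the data. These shares are therefore not the recovery in the data. The differences were -0.47 for NQO1 (95% interval -1.32 to 0.38), -0.45 for POR (-1.14 to 0.24) and 0.08 for PTGS1 (-0.47 to 0.62). With quantile normalization and with shifted arrays PTGS1 was called higher in Ota (1.04 and 0.82, adjusted p = 0.00134 and 0.0105). Of the bright SULT1A1 sets, 215299_x_at was called lower in Ota than in Aa (-0.72 ± 0.24, adjusted p = 0.0120, 34.8% of all sets called lower) and 203615_x_at was not (-0.49 ± 0.22, 0.0602).

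The cells carried few of the proximal tubule markers of their label. Of 11 proximal tubule markers with a probe set, 2 (PAX8 and SLC3A1) exceeded 4 in all control means, LRP2, CUBN, SLC34A1, SLC5A2 and AQP1 did not, and 6 of 6 general epithelial markers did. So did 3 of 6 fibroblast markers (COL1A1, DCN and LUM) and 3 of 7 distal nephron markers, against 0 of 5 endothelial markers. The summed level of the proximal tubule list ran from 8.34 to 9.75 (log2) in the Ota high dose at 72 h, against 10.67 to 11.08 in controls, from 8.99 to 9.28 in the Ota high dose at 24 h, against 10.87 to 11.06, from 10.39 to 10.84 in the Aa high dose at 24 h, against 11.06 to 11.18, and from 9.86 to 10.25 at 48 h, against 11.21 to 11.47. The summed leukocyte list, with 0 of 5 markers over 4 in all control means, ran from 6.71 to 7.35 in the Ota high dose at 72 h, against 4.62 to 4.81 in controls, and from 6.91 to 7.34 in the Ota high dose at 24 h, against 4.70 to 4.71. In the Aa high dose it ran from 4.83 to 5.19 at 24 h, against 4.62 to 4.81, and from 5.27 to 6.07 at 48 h, against 4.68 to 4.78. FCER1G averaged 6.77 at 72 h, against 2.53 in controls, while PTPRC, the defining marker, stayed at or under 3.02 in every group mean. At 24 h of the Ota high dose FCER1G averaged 6.47, against 2.44, and ITGAM 4.96, against 2.35. At 72 h ITGAM averaged 2.41, against 2.36. The highest group means of CD14 and CD3E were 2.61 and 1.86. In the Ota high dose at 72 h the summed fibroblast list ran from 10.29 to 10.95, against 9.55 to 9.90 in controls, with LUM called higher (1.58 ± 0.23, limma, adjusted p = 1.86e-05). COL1A1 and DCN were not called there (limma, adjusted p = 0.421 and 0.0583). The summed distal nephron list ran there from 9.64 to 9.89, against 10.75 to 11.28, and the epithelial list from 14.33 to 14.64, against 14.81 to 14.87. Of the distal nephron markers, CLDN16 and SCNN1A were called lower there (-2.88 ± 0.51 and -1.93 ± 0.14), but AQP3 was called higher (2.04 ± 0.25, limma, adjusted p = 3.40e-06). RNA quality can be read from the actin control sets: their 3′ signal exceeded their 5′ signal by 1.88 ± 0.37 (log2) in the Ota high dose at 72 h, against 1.29 ± 0.15 in controls, and by 1.25 ± 0.30 in the Aa high dose at 48 h, against 0.86 ± 0.22. For the GAPDH sets the same difference had group means between -0.10 and -0.01 in the 12 groups. The part of these shifts in the results was not tested, and in bulk RNA fewer cells of a kind and less RNA per cell cannot be told apart.

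The enzymes that work beside the nitroreductases were read from a list of 18 reductases and microsomal partners, of which 12 were tested. In Aa high dose cultures 4 rose and 4 fell at 24 h and 5 rose and 4 fell at 48 h, with list medians of 0.01 and 0.20, against 0.03 and -0.04 over all genes. Of all genes 27.4% rose and 24.0% fell at 24 h, and 30.9% and 35.1% at 48 h, so the list's counts lay near the shares over all genes. NDOR1, a diflavin reductase related to POR, rose most, to 8.53 ± 0.64 in Aa high dose cultures at 24 h, against 6.65 ± 0.25 in controls (SD, n = 3 each). The change was 1.87 ± 0.30 there (limma, SE, adjusted p = 9.45e-05) and 2.61 ± 0.30 at 48 h (2.08e-06). CYP1B1, a P450 served by POR, rose by 1.85 ± 0.24 and 1.64 ± 0.24 (adjusted p = 1.47e-05 and 2.31e-05).

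In Ota high dose cultures at 24 h, 1 of these 12 genes rose and 7 fell (list median -0.56, against -0.26 over all genes, of which 21.6% rose and 42.4% fell), a split that became 3 and 5 with quantile normalization and 4 and 3 with shifted arrays. CYP1B1 was at 6.61 ± 0.22 in the high dose, against 8.71 ± 0.07 in controls (-2.11 ± 0.18, adjusted p = 5.35e-08; -1.29 with quantile normalization), and its effect differed from that of Aa by -3.96 ± 0.30 (limma, adjusted p = 1.16e-11). AKR1C3, an aldo-keto reductase, fell by 2.16 ± 0.23 (6.89e-07). At 72 h 4 rose and 1 fell, against 26.3% and 37.0% of all genes (6 and 1 with quantile normalization, 9 and 1 with shifted arrays), and the fall was that of CYB5R1, a cytochrome b5 reductase (-2.80 ± 0.33, adjusted p = 2.68e-06). CYB5R4, of the same family, rose by 0.94 ± 0.22 (0.00136). The rise of CYP1B1 there, 0.51 ± 0.18 (0.0197), was lost without high dose replicate 2 (0.107), and neither of the 2 other CYP1B1 sets tested there was called.

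**Figure D4:**
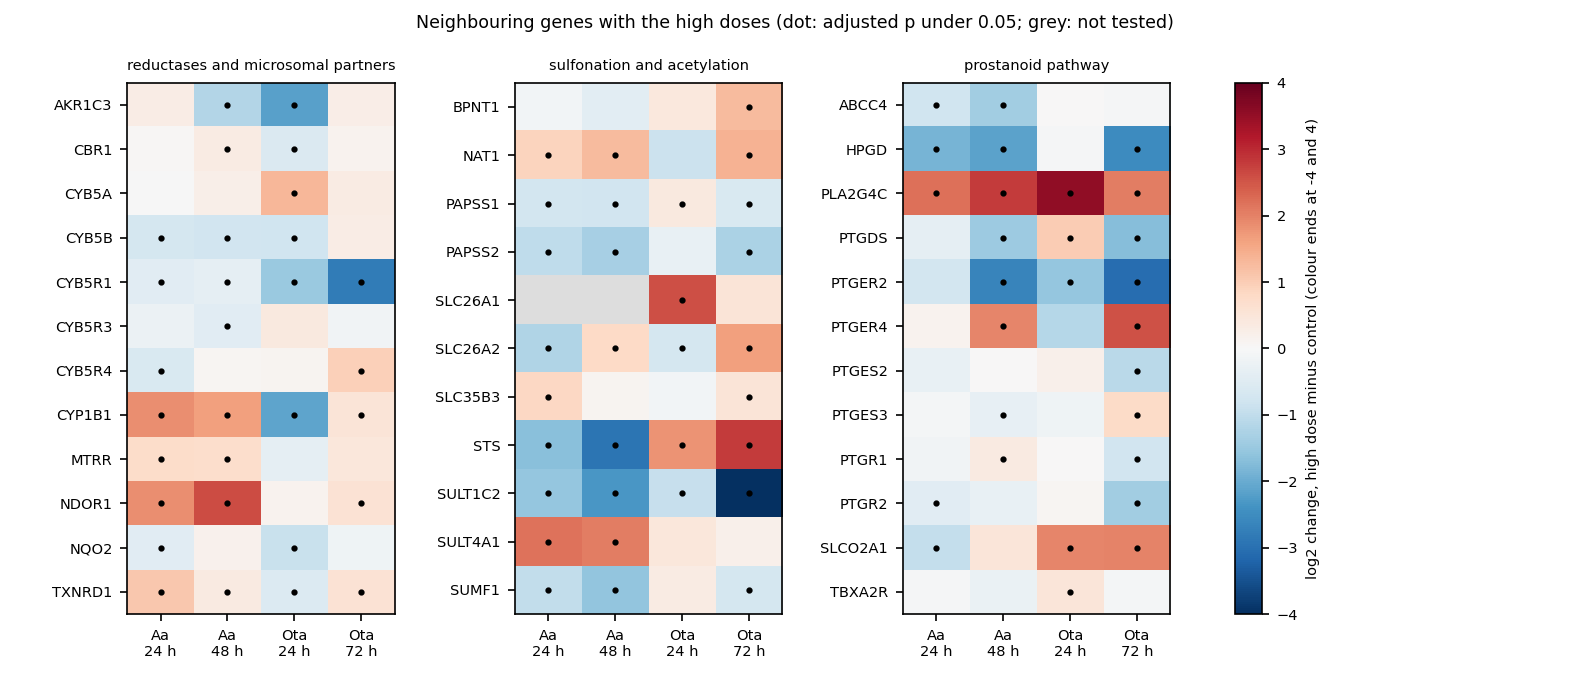
Log2 change with the high dose against controls (colour) of the tested genes on 3 lists, the partners of the nitroreductases, of the sulfotransferase and of the cyclooxygenases (rows), for each compound and time (columns). Dots mark calls at an adjusted p under 0.05, and grey cells were not tested. CYP1B1 and STS changed in opposite directions with Aa and with Ota at 24 h, and PLA2G4C rose in all 4 comparisons.

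Xanthine dehydrogenase needs the molybdenum cofactor, which gephyrin, the product of GPHN, helps to build. GPHN fell with both compounds at every time with the high dose. It read 3.01 ± 0.13 in the Aa high dose at 24 h, against 8.42 ± 0.33 in controls, at least 21.5-fold lower (limma, adjusted p = 1.45e-05), and the change with values at or under 4 set to 4 was -4.81 at 48 h (-5.95 as deposited). In Ota the changes were -3.10 ± 0.50 at 24 h and -4.02 ± 0.50 at 72 h, to 6.83 ± 0.66 in the high dose at 72 h against 10.85 ± 0.10 in controls (adjusted p = 5.10e-05 and 3.79e-06). Both other GPHN sets tested were called lower in each of these comparisons.

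Of 13 tested genes of the molybdenum cofactor and of purine breakdown, 3 rose and 8 fell with the high dose of Ota at 72 h (list median -0.55, against -0.12 over all genes, of which 26.3% rose and 37.0% fell; 3 rose and 6 fell under either other scaling), and 2 rose and 8 fell at 24 h (list median -0.72, against -0.26 over all genes, of which 21.6% rose and 42.4% fell; 4 and 4 with quantile normalization, 5 and 4 with shifted arrays). SUOX, sulfite oxidase, another molybdenum enzyme, was at least 9.70-fold lower at 24 h (adjusted p = 9.68e-10). NT5E, which makes adenosine from AMP, rose by 2.94 ± 0.26 at 72 h (1.30e-07) and fell by 1.30 ± 0.24 with Aa at 24 h (0.000330), where neither of its 2 other sets tested was called. PNP, which acts just ahead of XDH in purine breakdown, rose by 1.06 ± 0.12 with Aa at 48 h (1.60e-06). With Aa 4 of the 13 rose and 4 fell at 24 h, against 27.4% and 24.0% of all genes, and 3 rose and 6 fell at 48 h, against 30.9% and 35.1%.

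For sulfonation and acetylation, 10 genes were tested with Aa, and 6 fell and 3 rose at 24 h, where the list median was -0.85 against 0.03 over all genes, of which 24.0% fell and 27.4% rose. At 48 h 5 fell and 3 rose (list median -0.59 against -0.04 over all genes, of which 35.1% fell and 30.9% rose). The falls included PAPSS1 and PAPSS2, which make the sulfate donor and were picked after their values were seen (-0.73 and -1.01 at 24 h, adjusted p = 0.000104 and 0.0187), and SULT1C2 (-2.32 ± 0.35 at 48 h, 3.60e-05). STS, which removes sulfate from steroids, fell by 1.67 ± 0.23 and 2.92 ± 0.23 with Aa (adjusted p = 2.48e-05 and 5.81e-08). With Ota it rose by 1.78 ± 0.21 and 2.79 ± 0.21 (1.77e-06 and 1.67e-08), and at 24 h the effects differed by 3.45 ± 0.31 (3.38e-10). SULT4A1 was the largest rise with Aa at 24 h (2.18 ± 0.31, 3.62e-05). With Ota, 3 of 11 rose and 2 fell at 24 h, against 21.6% and 42.4% of all genes (6 and 2 with quantile normalization, 8 and 0 with shifted arrays), and 5 rose and 4 fell at 72 h, against 26.3% and 37.0% (7 and 2 with shifted arrays), when SULT1C2 fell by 4.13 ± 0.28 (6.19e-09). SLC26A1, a sulfate transporter, was at least 2.24-fold higher in Ota at 24 h. Its controls there were all at or under 4 and the filter favoured a rise, so this is a description with no test, though SLC26A1 is counted among the 3 that rose.

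Around the cyclooxygenases, PLA2G4C, a phospholipase A2 that frees fatty acids such as arachidonic acid, rose in all 4 high dose comparisons. It was at least 2.50-fold higher with Aa at 24 h and at least 4.28-fold at 48 h. Its Aa controls were all at or under 4, so with Aa it passed the filter only through treated arrays. These rises are therefore a description with no test. With Ota at 24 h it was at least 7.64-fold higher (limma, adjusted p = 2.01e-06). With Ota at 72 h it was at 6.54 ± 1.16, against 4.49 ± 0.18 in controls (2.05 ± 0.42, 0.000465). PTGER2, a prostaglandin E receptor, fell by 2.64 ± 0.32 with Aa at 48 h, by 1.54 ± 0.27 with Ota at 24 h (0.86 with shifted arrays) and by 3.06 ± 0.27 at 72 h, and PTGER4, another such receptor, rose by 2.55 ± 0.49 there (0.000311). HPGD, which inactivates prostaglandins, fell by 1.85 ± 0.40 with Aa at 24 h (0.00120), and SLCO2A1, which carries them into the cell, rose by 1.95 ± 0.25 with Ota at 24 h (5.67e-06). Of the 12 genes tested, 1 rose and 4 fell with Aa at 24 h, against 27.4% and 24.0% of all genes, and 3 rose and 5 fell at 48 h, against 30.9% and 35.1%. PLA2G4C, whose rises with Aa are a description, was the 1 that rose at 24 h and is counted among the 3 at 48 h. With Ota 4 rose and 1 fell at 24 h, against 21.6% and 42.4% of all genes (10 and 1 with shifted arrays, 6 and 1 with quantile normalization), and 4 rose and 6 fell at 72 h, against 26.3% and 37.0%.

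**Figure D5:**
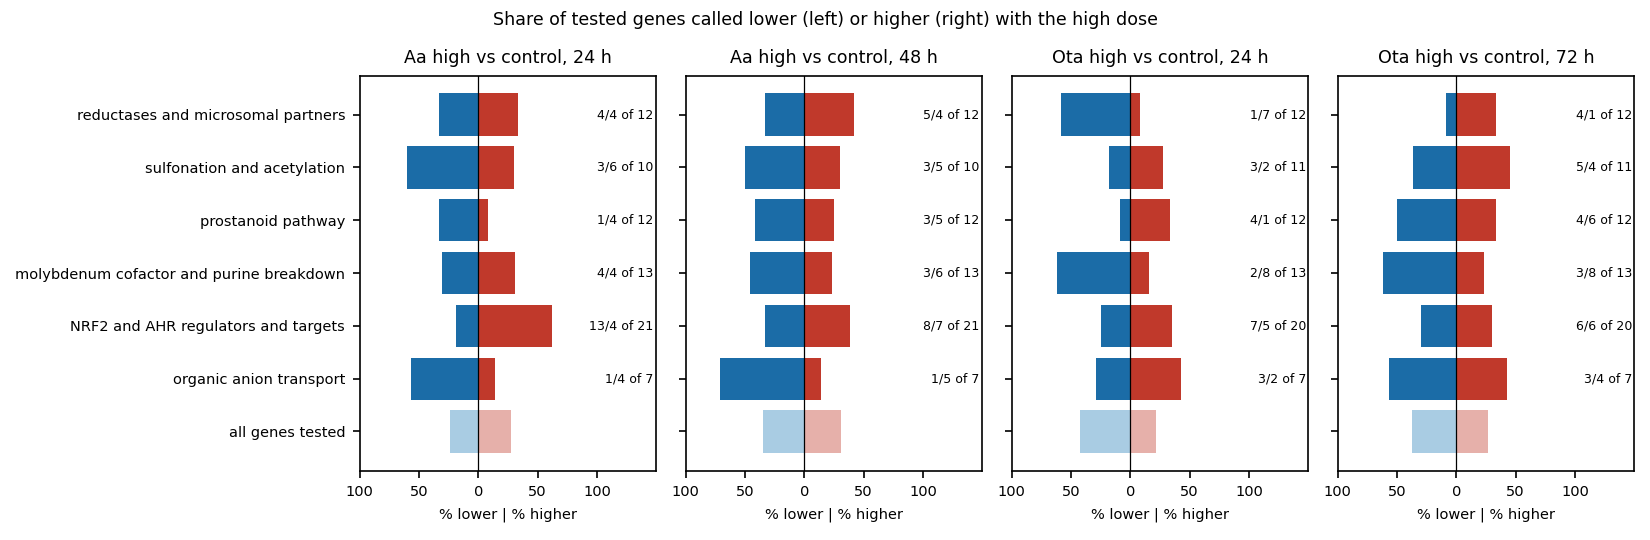
Percent of the tested genes of each list called lower (to the left, blue) or higher (to the right, red) with the high dose against controls; numbers at the right of each row give the counts higher and lower and the genes tested, and the pale row is the share of all genes tested. With Aa at 24 h, 13 of 21 genes of the NRF2 and AHR list were called higher, against 27.4% of all genes. The 13 include AHRR and OSGIN1, whose controls there were all at or under 4, so the filter favoured their rise.

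NQO1 is a classic target of NRF2 and of the aryl hydrocarbon receptor, and 21 other genes of those regulators and their targets were tested with Aa and 20 with Ota. At 24 h of high dose Aa, where NQO1 rose, 13 rose and 4 fell (list median 0.42, against 0.03 over all genes, of which 27.4% rose and 24.0% fell). KEAP1, which holds NRF2 in check, rose by 1.13 ± 0.18 (adjusted p = 0.000127), NFE2L2, the gene of NRF2, by 0.90 ± 0.22 (0.00360), and HMOX1, heme oxygenase, by 1.11 ± 0.22 (0.000613). The other NFE2L2 set tested was not called, and at 48 h the gene's change was 0.02 ± 0.22 (limma, adjusted p = 0.932). KEAP1 and NFE2L2 were picked for their link to NQO1 after their values were seen. The largest rises were those of AHRR, the repressor of the receptor (at least 2.15-fold), and OSGIN1 (at least 2.64-fold). Their controls there were all at or under 4, so the filter favoured a rise. These values are a description with no test, though both genes are counted among the 13. At 48 h 8 rose and 7 fell, against 30.9% and 35.1% of all genes, with OSGIN1 at least 3.95-fold higher and TIPARP, a receptor target, lower by 2.98 ± 0.21 (change of -2.98, 2.31e-08), and HMOX1 was near its controls (-0.10 ± 0.22, 0.711). The value of OSGIN1 at 48 h is again a description with no test, though the gene is counted among the 8.

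At 72 h of high dose Ota, where NQO1 fell, 6 of these 20 genes rose and 6 fell, near the 26.3% and 37.0% of all genes (8 and 7 with quantile normalization, 10 and 4 with shifted arrays). SLC7A11, the cystine carrier and an NRF2 target, fell by 3.50 ± 0.28 (adjusted p = 4.08e-08), and MAFF, a small partner of NRF2, rose by 1.88 ± 0.27 (1.77e-05). HMOX1 had 0.20 ± 0.38 (0.658). At 24 h 7 rose and 5 fell, against 21.6% and 42.4% of all genes (10 and 3 with quantile normalization, 13 and 2 with shifted arrays). MAFF was higher by 2.54 ± 0.27 (limma, adjusted p = 7.34e-07). AHRR was at least 3.11-fold higher, a description with no test, since its controls there were all at or under 4 and the filter favoured a rise. The gene is still counted among the 7 that rose. HMOX1 fell by 1.04 ± 0.38 at 24 h (0.0244), but by 0.37 with shifted arrays and 0.15 with quantile normalization, and KEAP1 fell by 1.17 ± 0.17 (1.71e-05), or by 0.70 with quantile normalization and 0.50 with shifted arrays. The HMOX1 call was lost without high dose replicate 2 (adjusted p = 0.133), with quantile normalization (0.696) and with shifted arrays (0.343).

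Carriers of organic anions, the form in which aristolochic acid reaches the tubule, had 7 tested genes on the list. Under high dose Aa 1 rose and 4 fell at 24 h and 1 rose and 5 fell at 48 h (list medians -0.99 and -2.23, against 0.03 and -0.04 over all genes). Of all genes 27.4% rose and 24.0% fell at 24 h, and 30.9% and 35.1% at 48 h. SLCO3A1 fell by 2.29 ± 0.30 at 24 h (adjusted p = 1.77e-05), SLC17A1 by 2.09 ± 0.44 (0.00109) and SLCO4C1 by 2.87 ± 0.39 at 48 h (1.10e-05). With Ota 3 rose and 2 fell at 24 h, against 21.6% and 42.4% of all genes, and 3 rose and 4 fell at 72 h, against 26.3% and 37.0% (list medians -0.29 and -1.11, against -0.26 and -0.12 over all genes). SLC17A1 was at least 4.07-fold lower at 24 h (3.79e-07) and at least 3.05-fold lower at 72 h (1.54e-07), with 1 of its 2 other sets tested called lower at each time, and SLC17A3 fell by 3.50 ± 0.63 at 72 h (0.000169), or by 2.66 with values at or under 4 set to 4. SLCO4C1 fell by 1.34 ± 0.27 at 24 h (0.000410), or by 0.67 with shifted arrays.

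As a description with no test, the genes most like each member were found over the 24 treated arrays, as Pearson's r of the value minus the mean of the own control group, among 11404 genes. For NQO1 they were RPL18 (0.954), GUSB (0.946) and CNPY2 (0.940), for POR they were WIPI2 (0.927), PXN (0.921) and RNF10 (0.913), and for PTGS1 they were OAZ1 (0.882), KLB (0.880) and CCT8 (0.878). For XDH they were LIMCH1 (0.989), SCARNA17 (0.986) and H3C8 (0.977). The treated arrays share controls within a compound and time, and for XDH the value rests on the 3 arrays of 1 group. KLB too exceeded 4 only in that group, the Ota high dose at 72 h (5.22 ± 0.86). RPL18, GUSB and CNPY2 were called lower than controls only there. NQO1 and PTGS1 had their largest changes in the same group (-3.50 and 1.64), and how far their r values rest on it was not tested.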

How the data were processed

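HK-2 cells were profiled on 36 one-colour arrays (54675 probe sets, 62 of them controls). The deposited values are log2 expression, for which the submitters' processing notes name GCRMA without a version. Neither a genome build nor joint normalization of the 36 arrays by the authors is stated there. The number of arrays limits the precision. Of the probe sets, 41091 had a single gene symbol in the platform annotation (41037 matched by Entrez ID), 1801 had several and 11721 none. Per gene the set with the highest mean was kept (19775 genes).

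Genes over 4 on at least 3 arrays of a compound were tested with limma 3.58.1 (R 4.3.3): 10972 for Aa, 11029 for Ota, and 11405 in the fit of all arrays used across compounds. Groups of a compound shared 1 estimate of the spread, and p-values were adjusted by Benjamini-Hochberg over all genes tested. "At least" folds set values at or under 4 to 4. Where such a fold is a rise, the controls were all at or under 4, and the filter could favour a rise. Other probe sets of the members were read from a fit of all single-symbol sets (20386 for Aa, 20575 for Ota). On simulated data, changes of 1 and of 2 (log2) were recovered in 76% and 99% of genes for the Aa high dose at 24 h, in 67% and 98% for the Ota high dose at 24 h, and in 43% and 92% for the Ota against Aa effect. Each simulation changed far fewer genes than were called in the data, so these shares are not the recovery in the data. Promoters were read with Python 3.11.15, and figures drawn with matplotlib 3.10.9.

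The members and gene lists were chosen with earlier results of these data known. Genes named are the members, for each list the 2 called genes with the largest absolute change in each high dose comparison, GPHN and HMOX1, marker genes where a result turns on them, and the 3 genes most like each member. PAPSS1, PAPSS2, KEAP1 and NFE2L2 fall outside this rule and were picked after their values were seen. Aa samples of the same replicate number deviated together (correlations of deviations within a time from 0.188, median 0.423), so a fit with the number as a block was read beside the Aa results where it changed a call. Other alternatives were quantile normalization, arrays shifted to 1 median, other filters, an intensity trend, other sets of arrays in the fit and each array left out.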

Additional observations from a re-analysis of the deposited data

Results flagged for a closer look

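NQO1, POR and PTGS1 had a high dose effect of Ota that differed between 72 h and 24 h by a direct test of that difference (limma, Benjamini-Hochberg, 53.8% of all genes called). The effect of 72 h minus that of 24 h was -3.66 ± 0.52 for NQO1 (SE, log2, adjusted p = 3.38e-05), 1.19 ± 0.22 for POR (0.000325) and 1.17 ± 0.30 for PTGS1 (0.00401). For XDH it was 4.54, a description with no test, since XDH was testable only through the Ota high dose group at 72 h and its means in all other groups were under 4. Times differed in their controls too, and each was read against its own. With each array left out in turn the value ran from -4.30 to -3.32 for NQO1, from 1.08 to 1.35 for POR and from 0.99 to 1.43 for PTGS1, and these 3 stayed called. The median over the tested genes was 7.95 ± 0.05 on the Ota high dose arrays at 72 h and 7.64 ± 0.16 on those at 24 h (SD, n = 3 each), and the part of this in the difference was not tested.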

How the results depend on the processing

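No called change of a member changed sign under an alternative that gave a value, while uncalled ones did, among them the NQO1 and POR differences between Ota and Aa at 24 h with shifted arrays. In the Ota high dose at 24 h the balance of calls turned over with the scaling: 21.6% of all genes were higher and 42.4% lower, against 38.4% and 30.6% with quantile normalization and 48.3% and 26% with shifted arrays. There the reductase list went to 4 higher and 3 lower with shifted arrays (1 and 7 as deposited) and the molybdenum list to 5 and 4 (2 and 8). NQO1, POR and PTGS1 stayed called in the Ota high dose at 72 h, and in its difference from 24 h, under the alternatives that gave a value and with each array left out. XDH, whose call there the filter fixed, had no value on its other probe set, which was under 4 on all arrays. Members called, with the number in the main analysis in brackets, moved as follows. With all 36 arrays in 1 fit there were 1 (3) for Aa high dose against control at 24 h, 2 (1) for Aa high against low at 24 h, 1 (2) for Aa low at 48 h, 2 (1) for Ota high at 24 h and 1 (0) for Ota low at 24 h. With only the groups compared there were 0 (2) for Aa low at 48 h, 1 (0) for Ota low at 24 h and 1 (0) for the Ota controls at 72 h against 24 h. With no filter there were 1 (2) for Aa low at 48 h, 2 (1) for Ota high at 24 h and 0 (1) for Ota low at 72 h. With quantile normalization there were 2 (1), and with shifted arrays 3 (1), for Ota high at 24 h, 4 (2) with shifted arrays for Ota high against low at 24 h, and 1 (0) and 2 (0) for the high dose effect of Ota against Aa. Some of these are XDH at 24 h, whose values at or under 4 have no order. The member added with no filter for Ota high at 24 h is SULT1A1 on its main set (0.29, limma, adjusted p = 0.0272). Its values were all under 4 too. With the replicate block, for Aa, there were 1 (0) for low dose at 24 h, 2 (1) for high against low at 24 h and 2 (1) at 48 h. In Ota, samples of the same replicate number deviated together more weakly than in Aa. Their median correlation within a time was 0.143 (lowest -0.05), against -0.084 for different numbers. The block left the members called in Ota as they were, and for XDH at 72 h this says nothing, since the filter fixed that call.

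Leaving out 1 array at a time gave 0 to 3 members for Aa low at 48 h, 2 to 3 for Aa high at 24 h and at 48 h, 1 to 2 for Ota high and for Ota high against low at 24 h, and 0 to 0 for Ota low at 72 h. Counts over all genes moved by over 1.5 times with the block for Aa low at 24 h (4323, main 2753), Aa high against low at 24 h (4553, main 2970), the Aa time difference of the high dose (4304, main 2276) and of the low dose (1022, main 180), the Aa controls (1792, main 142) and the controls between compounds (1001, main 548). They moved with only the groups compared for the Aa controls (limma: 0), Ota low at 72 h (3479, main 1883) and the controls between compounds (214), with an intensity trend for the Aa controls (253), and with no filter for Ota against Aa (10168, main 6775). With an array left out they reached 66 to 253 for the Aa low dose time difference, 17 to 550 for the Aa controls, 1170 for Ota low at 72 h, 942 for Ota low at 24 h (main 1619), 399 for the Ota low dose time difference (main 809) and 182 for the controls between compounds. The cause was not tested. Values at or under 4 limit what can be said of PTGS2, the main SULT1A1 set and XDH outside 1 group.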
